A study of Mus musculus with 18 samples.

Results

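The 34 genes described here make cholesterol and fatty acids or control that synthesis. They were chosen by gene symbol, and all 34 were found by their Entrez identifiers among the 27179 gene rows of the deposited count table. All 34 passed the filter on low counts, which left 16466 genes to test. RNA sequencing was done on mammary epithelial cells sorted into 3 populations: basal cells (gate P5), luminal progenitors (LP, gate P7) and mature luminal cells (ML, gate P8). The cells came from female mice 14 weeks old. The 3 KO mice are named MMTVcre/Brca2/Trp53 knockdown in the sample titles but carry the genotype label Brca2KO, and they are called KO after that label, and the 3 WT mice carry the genotype label for wildtype. Each mouse gave 1 library per population, so there were 18 libraries in 6 groups of 3. One strain entry, MMTVcre Brca2(fl/fl) Trp53(fl/+), stands for every library, WT included, so whether WT mice carried the Cre transgene or the floxed alleles could not be read from the labels. MMTV-cre expresses the Cre recombinase from a mouse mammary tumour virus promoter, which is active in mammary epithelium and in some other tissues.

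Cholesterol synthesis joins acetyl-CoA units to mevalonate, turns mevalonate into isoprenoids and squalene, and closes and trims squalene to cholesterol. Fatty acid synthesis starts from cytosolic acetyl-CoA, builds palmitate, and then elongates and desaturates it. Both pathways are driven by the SREBP transcription factors, which INSIG proteins hold in the endoplasmic reticulum when sterols are plentiful. In the mammary gland the luminal alveolar cells use these enzymes to make milk fat.

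Levels are given as counts-per-million values (CPM) after scaling by the trimmed mean of M values (TMM), and a gene was called where the Benjamini-Hochberg adjusted p of edgeR's quasi-likelihood test, taken over all 16466 genes, was under 0.05. Library totals were 8.76 to 39.19 M (mega) counts in KO and 5.97 to 33.49 M in WT. In LP the totals of the genotypes did not overlap, with 22.42 to 32.72 M in KO and 9.29 to 16.17 M in WT. Trp53 averaged 22.7 ± 11.6 CPM in KO and 74.9 ± 16.2 CPM in WT basal cells, 8.0 ± 0.934 CPM in KO and 96.7 ± 46.5 CPM in WT LP, and 15.2 ± 1.72 CPM in KO and 45.3 ± 5.09 CPM in WT ML (SD, n = 3 each), and was called lower in all 3 populations. Brca2 was called in none of the 3 populations, with adjusted p of 0.676 (basal), 0.508 (LP) and 0.842 (ML). The deleted exons were not given in the sources used here, and whole-gene counts of Brca2 do not check the deletion. The basal keratin gene Krt5 was at 1457 to 1776 CPM in KO and 1840 to 1891 CPM in WT basal cells, and the progenitor receptor gene Kit was at 397 to 629.5 CPM in KO and 492 to 852 CPM in WT LP. Mature luminal markers summed to 1626 to 4749 CPM in KO and 7319 to 9710.1 CPM in WT ML. In LP they summed to 205 to 467 CPM in KO and 629.7 to 926 CPM in WT. In basal cells they summed to 139 to 172 CPM in KO and 46.4 to 60.5 CPM in WT. The ML KO libraries thus kept the highest mature luminal levels outside WT ML, but also held markers of other populations. Kit was at 127 to 257 CPM in ML KO and 10.8 to 13.3 CPM in ML WT, and Krt5 was at 141 to 184 CPM in ML KO and 1.92 to 3.48 CPM in ML WT. In bulk samples a change in the share of a cell type and a change of RNA per cell cannot be told apart.

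Promoter sequences of RefSeq (GRCm38.p6) were given for 27 of the 34 genes. The 250 bases before each annotated start were searched on both strands for the NF-Y site CCAAT, for the SREBP sites TCACNCCAC and TCANCCCAC, and for the E-box CACGTG. NF-Y is a factor known to act together with SREBP proteins at sterol-responsive promoters. A CCAAT match was present in 23 of the 27 genes (85.2%), against 37.5% of the 27025 genes with a promoter sequence and 40.3% of the 12237 of them that were tested. An SREBP match was present in 1 of the 27 genes (3.7%, Hmgcs1), against 2.03% of all genes and 2.07% of tested genes. An E-box match was present in 5 of the 27 (18.5%), against 6.86% of all genes and 9.28% of tested genes. These are letter matches only. The sequences below belong to the gene with the SREBP match, to genes called in LP (Mvd and Elovl5) and to genes called in ML (Thrsp and Fads2). Each runs 5′ to 3′ on the strand of its gene, with NF-Y and SREBP matches in capitals.
Hmgcs1, chr13:119690101-119690350, plus strand: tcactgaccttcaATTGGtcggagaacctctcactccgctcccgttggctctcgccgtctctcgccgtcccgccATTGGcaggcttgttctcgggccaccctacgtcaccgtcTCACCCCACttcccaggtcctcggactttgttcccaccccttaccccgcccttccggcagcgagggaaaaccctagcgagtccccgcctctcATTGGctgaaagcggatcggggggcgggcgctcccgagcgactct
Mvd, chr8:122443423-122443672, minus strand: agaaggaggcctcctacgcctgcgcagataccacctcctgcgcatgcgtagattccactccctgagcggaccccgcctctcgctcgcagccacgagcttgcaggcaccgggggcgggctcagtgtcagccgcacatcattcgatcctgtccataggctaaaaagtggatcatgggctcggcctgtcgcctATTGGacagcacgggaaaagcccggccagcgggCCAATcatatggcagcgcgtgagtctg
Elovl5, chr9:77917115-77917364, plus strand: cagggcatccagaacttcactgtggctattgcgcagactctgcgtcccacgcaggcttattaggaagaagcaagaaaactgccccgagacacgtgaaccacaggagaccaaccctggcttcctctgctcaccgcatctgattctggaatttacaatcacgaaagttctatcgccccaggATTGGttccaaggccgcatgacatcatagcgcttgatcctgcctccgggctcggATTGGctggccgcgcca
Thrsp, chr7:97417551-97417800, minus strand: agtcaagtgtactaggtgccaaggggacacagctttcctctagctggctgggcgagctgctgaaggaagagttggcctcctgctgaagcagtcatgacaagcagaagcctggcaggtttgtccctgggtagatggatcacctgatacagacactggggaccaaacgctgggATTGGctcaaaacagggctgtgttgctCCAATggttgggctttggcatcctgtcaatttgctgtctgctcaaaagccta
Fads2, chr19:10101504-10101753, minus strand: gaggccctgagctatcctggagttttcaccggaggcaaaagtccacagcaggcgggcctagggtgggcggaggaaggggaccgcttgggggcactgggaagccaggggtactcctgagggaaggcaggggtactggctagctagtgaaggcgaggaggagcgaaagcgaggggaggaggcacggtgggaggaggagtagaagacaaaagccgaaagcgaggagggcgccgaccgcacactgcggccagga
In Hmgcs1 the SREBP match began 137 bases before the start, and NF-Y matches began 237, 176 and 45 bases before it. Mvd, Elovl5 and Thrsp held 2 NF-Y matches each, and the Fads2 window held none of these letters.

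**Figure D1:**
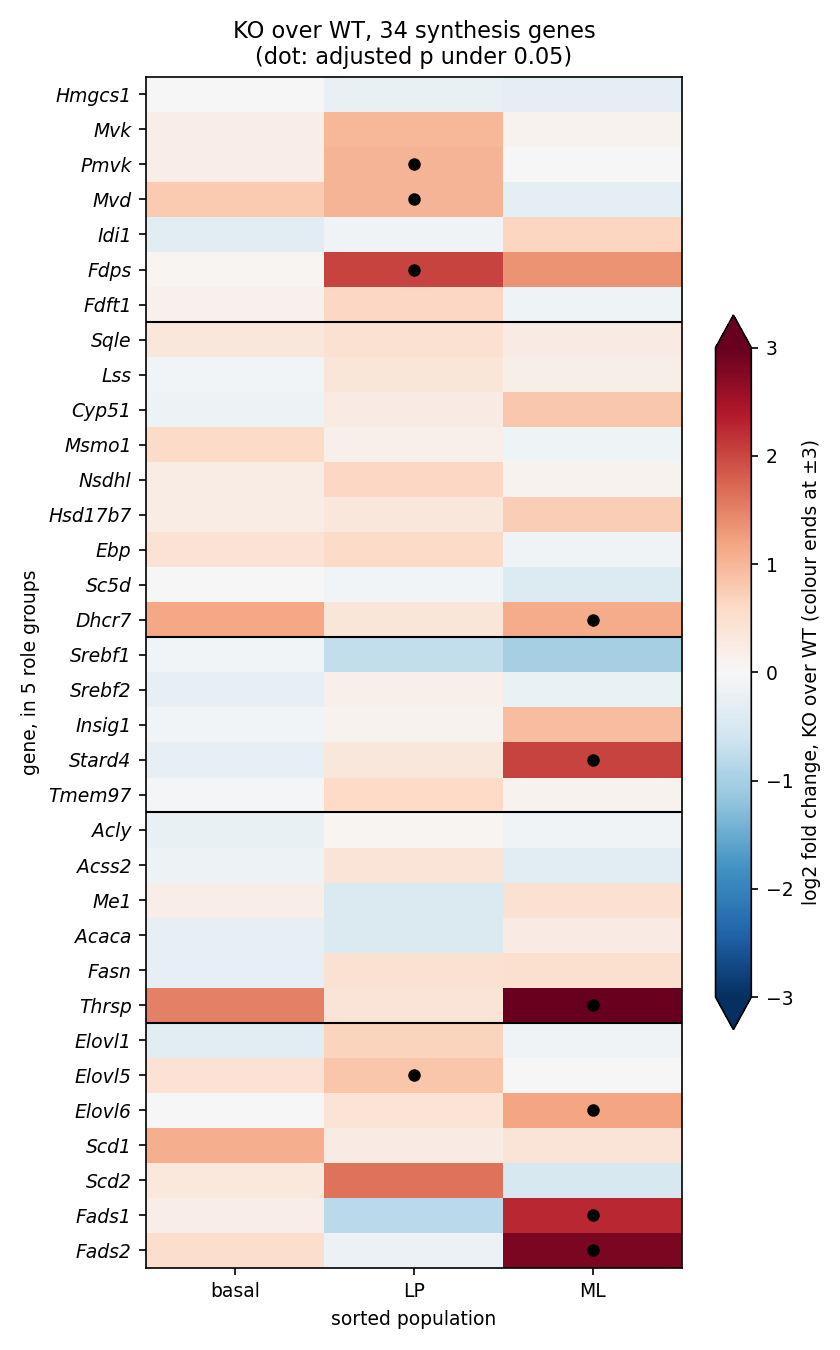
Heat map of the log2 fold change of KO over WT (colour) for the 34 genes (rows, in 5 role groups) in the 3 sorted populations (columns), each from 3 KO and 3 WT mice, with a black dot where the adjusted p was under 0.05. Dots are absent in basal cells, mark 4 genes in LP and 6 genes in ML, and all mark higher levels in KO.

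In KO basal cells none of the 34 genes was called. Across all genes 3.15% were called in basal cells, 2.96% higher in KO and 0.188% lower. The 3 genes of lowest p were all higher in KO. Dhcr7, which encodes the reductase of the last step of cholesterol synthesis, had 6.38, 13.5 and 7.09 CPM in KO and 3.64, 5.38 and 2.92 CPM in WT basal cells, a log2 fold change of 1.16 (SE 0.34, adjusted p 0.0734). The lowest KO library lay above the highest WT library. Without KO mouse 1 the adjusted p of Dhcr7 was 0.0433, and DESeq2 gave 0.0161. Scd1, a stearoyl-CoA desaturase, had 107, 109.9 and 114 CPM in KO and 25.4, 77.2 and 52.1 CPM in WT basal cells, a log2 fold change of 1.09 (SE 0.39, adjusted p 0.189). Mvd, the mevalonate diphosphate decarboxylase, had 7.46, 8.50 and 5.10 CPM in KO and 4.57, 4.05 and 3.58 CPM in WT (log2 fold change 0.79, SE 0.31, adjusted p 0.250). These 3 genes were the members whose KO libraries all lay above the WT libraries in basal cells, and none lay wholly below. Such separation above was found in 10.8% of all genes and below in 6.82%. In WT mice each of these 3 genes was called higher in both luminal populations than in basal cells. The summed levels of luminal markers were also higher in every KO basal library than in every WT one, as were those of some other lists. Mature luminal markers summed to 139 to 172 CPM in KO and 46.4 to 60.5 CPM in WT basal cells (2 of 8 called higher), and luminal progenitor markers to 112 to 224 CPM in KO and 85.9 to 108 CPM in WT (1 of 8 called higher). Milk and alveolar markers summed to 237 to 546 CPM in KO and 119 to 179 CPM in WT (0 of 12 called), and cell cycle markers to 362 to 643 CPM in KO and 199 to 262 CPM in WT (6 of 8 called higher). Fibroblast markers summed to 451 to 586 CPM in KO and 379 to 429 CPM in WT basal cells. Basal markers were lower in every KO library, with sums of 12769 to 15410 CPM in KO and 16448 to 19437 CPM in WT. The part of these markers in the basal values was not tested.

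The first gene of each role group shows how far the basal genotypes overlapped. Hmgcs1, the cytosolic HMG-CoA synthase, had 99.1, 126 and 83.1 CPM in KO and 65.5, 141 and 104 CPM in WT basal cells. Sqle, the squalene epoxidase, had 263, 253 and 149 CPM in KO and 196, 200.2 and 125 CPM in WT. Srebf1, which encodes the SREBP proteins that act mostly on fatty acid genes, had 93.5, 72.7 and 104 CPM in KO and 60.4, 135 and 88.1 CPM in WT. In all 3 of these genes the ranges of KO and WT overlapped. Acly, the enzyme that makes cytosolic acetyl-CoA from citrate, had 258, 188 and 137 CPM in KO and 215, 268 and 194 CPM in WT. Elovl1, an elongase of very long chains, had 50.6, 51.4 and 42.6 CPM in KO and 73.5, 62.6 and 43.0 CPM in WT. Over the 34 genes the median log2 fold change in basal cells was 0.094, with a range of -0.34 to 1.51, against a median of -0.021 over all genes tested.

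In KO LP 4 of the 34 genes were called, and all 4 were higher in KO. The calls were Pmvk, Mvd and Fdps, 3 of the 7 genes of the route to squalene, and Elovl5, a fatty acid elongase. Across all genes 8.28% were called higher and 6.63% lower in LP (14.9% in either direction), and 4 of 34 is near these shares. The median log2 fold change of the 34 genes was 0.36, against 0.022 over all genes tested, and 26 of the 34 were above 0.

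Fdps, the farnesyl diphosphate synthase, had 43.1, 40.0 and 43.6 CPM in KO and 4.81, 9.01 and 16.4 CPM in WT LP, a log2 fold change of 2.02 (SE 0.52, adjusted p 0.0146), or 4.07-fold. The KO libraries were close to each other, and the WT libraries were spread and all lower. Pmvk, the phosphomevalonate kinase, had 29.8, 27.5 and 43.6 CPM in KO and 11.8, 17.1 and 20.7 CPM in WT LP (log2 fold change 1.01, SE 0.28, adjusted p 0.0210). Mvd, which acts next after Pmvk, had 17.8, 17.7 and 22.1 CPM in KO and 6.17, 7.67 and 13.7 CPM in WT LP (log2 fold change 1.03, SE 0.29, adjusted p 0.0232). The genotypes did not overlap for either gene, and KO mouse 3 was the highest library for both. Elovl5, which elongates polyunsaturated fatty acids, had 51.2, 61.3 and 51.6 CPM in KO and 21.0, 35.4 and 36.2 CPM in WT LP (log2 fold change 0.82, SE 0.26, adjusted p 0.0398), again with no overlap.

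**Figure D2:**
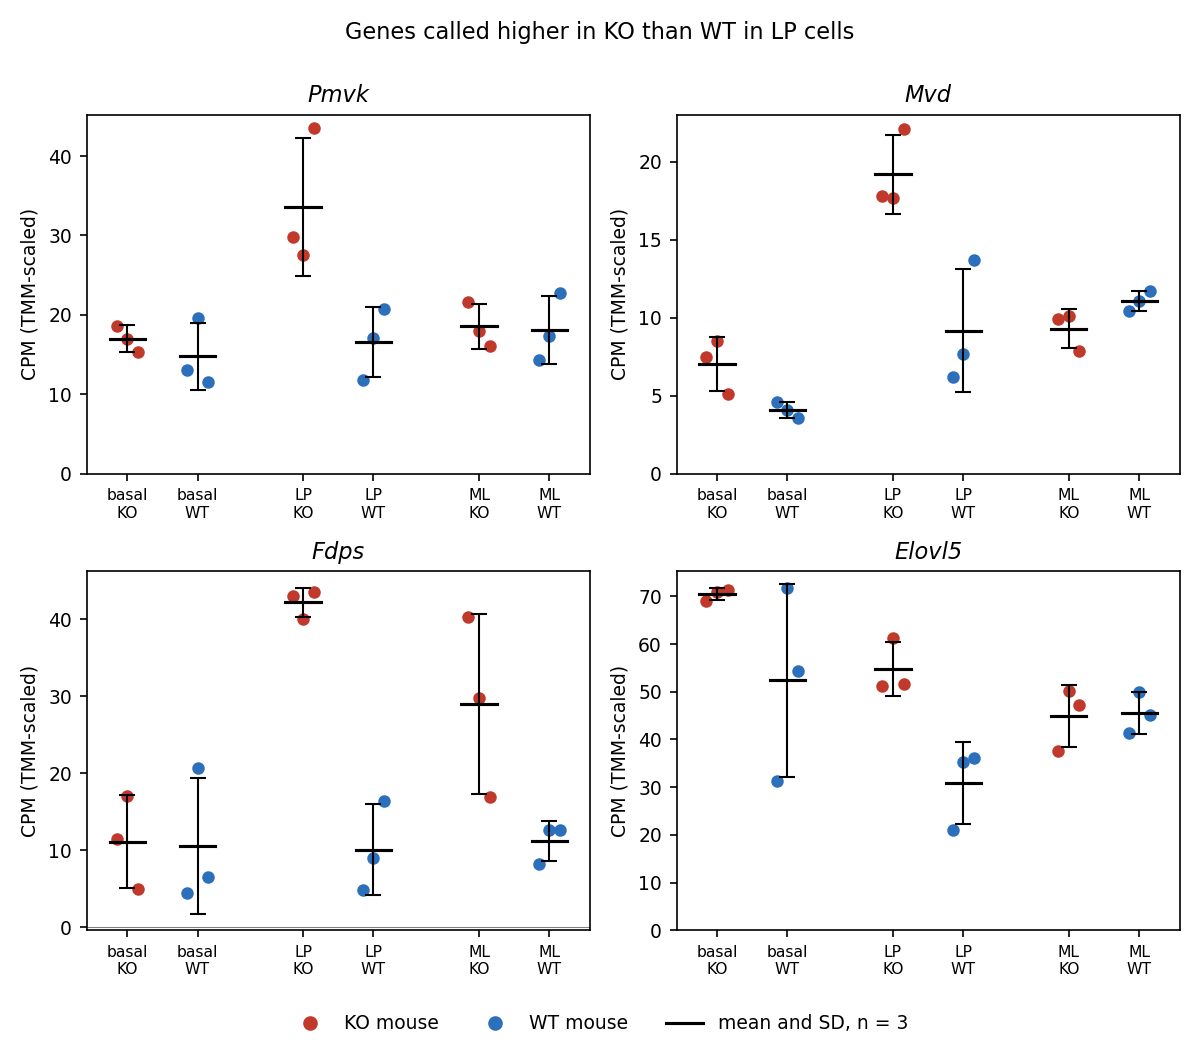
Level (CPM, TMM-scaled, linear axis from 0) of the 4 genes called higher in KO LP, by population and genotype, with 1 point per mouse, KO in red and WT in blue, and black lines for the mean and SD of 3 mice. In LP all KO points lie above all WT points for each gene, while the basal and ML ranges of Pmvk and Elovl5 overlap.

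The other genes of the route to squalene did not pass the test in LP. Mvk, the mevalonate kinase, had 6.0, 7.81 and 10.3 CPM in KO and 2.22, 4.45 and 5.15 CPM in WT LP (log2 fold change 0.99, adjusted p 0.155). Fdft1, the squalene synthase, had 40.9, 46.9 and 45.1 CPM in KO and 27.4, 29.8 and 29.8 CPM in WT (log2 fold change 0.61, adjusted p 0.107). Both were separated between genotypes, like Pmvk, Mvd and Fdps, while Hmgcs1 and Idi1, the isopentenyl diphosphate isomerase, overlapped and had log2 fold changes of -0.22 and -0.11. None of the 9 genes from squalene to cholesterol was called in LP, with log2 fold changes of -0.086 to 0.62, 8 of them above 0. Sqle, listed first among them, had 132, 200.4 and 82.1 CPM in KO and 105, 106 and 90.1 CPM in WT LP, so the KO libraries lay on both sides of WT. Nsdhl and Ebp, which act in sterol demethylation and isomerisation, were the members of this group with every KO library above WT.

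Of the 5 genes of sterol sensing and transport none was called in LP. Srebf1 had 95.5, 85.2 and 149 CPM in KO and 100.4, 299.8 and 154 CPM in WT LP (log2 fold change -0.75, adjusted p 0.137), and the high WT library was mouse 2. None of the 6 genes from acetyl-CoA to palmitate was called in LP. Acly had 291, 258 and 222 CPM in KO and 234, 211 and 301 CPM in WT LP, with full overlap. Scd2, another stearoyl-CoA desaturase, had 126, 111 and 58.1 CPM in KO and 15.8, 50.7 and 28.6 CPM in WT LP (log2 fold change 1.63, SE 0.55, adjusted p 0.0538). Scd2 was called higher with DESeq2 (adjusted p 0.0175) and with the trend on gene length removed (0.0293). It was also called with the replicate number as a block (0.0409) and by limma voom with the mouse as random effect (0.0458). Fads1, the delta-5 desaturase, had 148, 186 and 185 CPM in KO and 188, 385 and 338 CPM in WT LP (log2 fold change -0.81, SE 0.31, adjusted p 0.0833), the one member with every KO LP library below WT. In all, 9 members lay wholly above and 1 wholly below, against 17.7% and 13.4% of all genes.

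Several calls in LP were lost when a library was left out, while the fold changes stayed above 0. Without KO LP mouse 3 only Fdps of the 4 was called, and without WT LP mouse 1 or WT LP mouse 2 none of the 4 was. Fdps had log2 fold changes of 1.71 without WT mouse 1 (adjusted p 0.0614) and 1.94 without WT mouse 2 (adjusted p 0.0698). Without KO mouse 3 and without WT mouse 1 or 2, the log2 fold change of Pmvk was 0.78, 0.82 and 1.03 (adjusted p 0.0966, 0.0844 and 0.0709) and that of Mvd 0.91, 0.82 and 0.91 (adjusted p 0.0725, 0.0916 and 0.112). For Elovl5 it was 0.87, 0.73 and 0.86 without KO mouse 1, 2 or 3 (adjusted p 0.0658, 0.0951 and 0.0669), and 0.61 and 0.93 without WT mouse 1 or 2 (adjusted p 0.156 and 0.0762). Without WT mouse 1, Srebf1 and Fads1 were called lower (adjusted p 0.0478 and 0.0354) and Elovl1 higher (0.0198). With every library thinned to 5973389 counts, which also lowers the power of the test, Fdps and Mvd were called and Pmvk and Elovl5 were not (log2 fold changes 0.69 and 0.67, adjusted p 0.205 and 0.0988). Beside these values, mature luminal markers in LP summed to 205 to 467 CPM in KO and 629.7 to 926 CPM in WT, with 4 of 8 called lower, and cell cycle markers summed to 561 to 953 CPM in KO and 188 to 314 CPM in WT, with 6 of 8 called higher. The part of depth and of these markers in the LP differences was not tested beyond the thinning.

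In KO ML 6 of the 34 genes were called, all higher in KO. They were the desaturases Fads1 and Fads2, the elongase Elovl6, the lipogenic regulator Thrsp, the sterol reductase Dhcr7 and the cholesterol carrier Stard4. Across all genes 11.8% were called higher and 3.5% lower in ML (15.2% in either direction), so 6 of 34 is near the share over all genes. With the trend on gene length removed, the calls over all genes in ML were 1874 higher and 1302 lower, against 1935 and 576. The median log2 fold change of the 34 genes was 0.14, against 0.021 over all genes tested.

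Fads2, the delta-6 desaturase that begins the synthesis of long polyunsaturated fatty acids, had 110.2, 55.7 and 65.7 CPM in KO and 7.13, 8.17 and 16.1 CPM in WT ML. Its log2 fold change was 2.83 (SE 0.34, adjusted p 7.94e-06), or 7.11-fold. Fads1, which acts later in the same route, had 105, 41.6 and 67.1 CPM in KO and 13.6, 12.2 and 18.3 CPM in WT ML, a log2 fold change of 2.26 (SE 0.34, adjusted p 6.96e-05), or 4.78-fold. For both genes every KO library lay above every WT library, and KO mouse 1 was the highest and KO mouse 2 the lowest. Both stayed called in all 16 alternatives, with log2 fold changes of 2.49 to 3.32 for Fads2 and 1.88 to 2.54 for Fads1. The genes lie close together with Fads3 on chromosome 19 (GRCm38.p6, chr19:10040855-10196874, 156.0 kb). Fads3, another member of the desaturase family, had 41.2, 20.9 and 31.4 CPM in KO and 6.97, 4.76 and 8.90 CPM in WT ML (log2 fold change 2.15, SE 0.30, adjusted p 3.45e-05).

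Elovl6, which elongates palmitate, had 52.7, 41.1 and 41.6 CPM in KO and 20.9, 26.7 and 12.1 CPM in WT ML (log2 fold change 1.19, SE 0.39, adjusted p 0.0446), with no overlap. Thrsp, the thyroid hormone responsive Spot protein of lipogenic tissues, had 53, 22 and 157 counts in KO and 0, 0 and 7 counts in WT ML, or 5.26, 0.607 and 6.21 CPM and 0, 0 and 0.299 CPM. Its log2 fold change of 4.50 (SE 1.5, adjusted p 0.0455) rests on 7 WT counts in 1 library, and its size is uncertain: it was 9.26 without WT mouse 3 and 7.57 with thinned libraries. Dhcr7 had 19.2, 29.6 and 16.3 CPM in KO and 9.03, 9.51 and 11.6 CPM in WT ML (log2 fold change 1.10, SE 0.32, adjusted p 0.0248). Stard4, which carries cholesterol between membranes, had 13.3, 10.4 and 9.73 CPM in KO and 3.80, 2.34 and 2.40 CPM in WT ML (log2 fold change 2.03, SE 0.54, adjusted p 0.0149), or 4.07-fold. The genotypes did not overlap for any of these 4 genes.

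**Figure D3:**
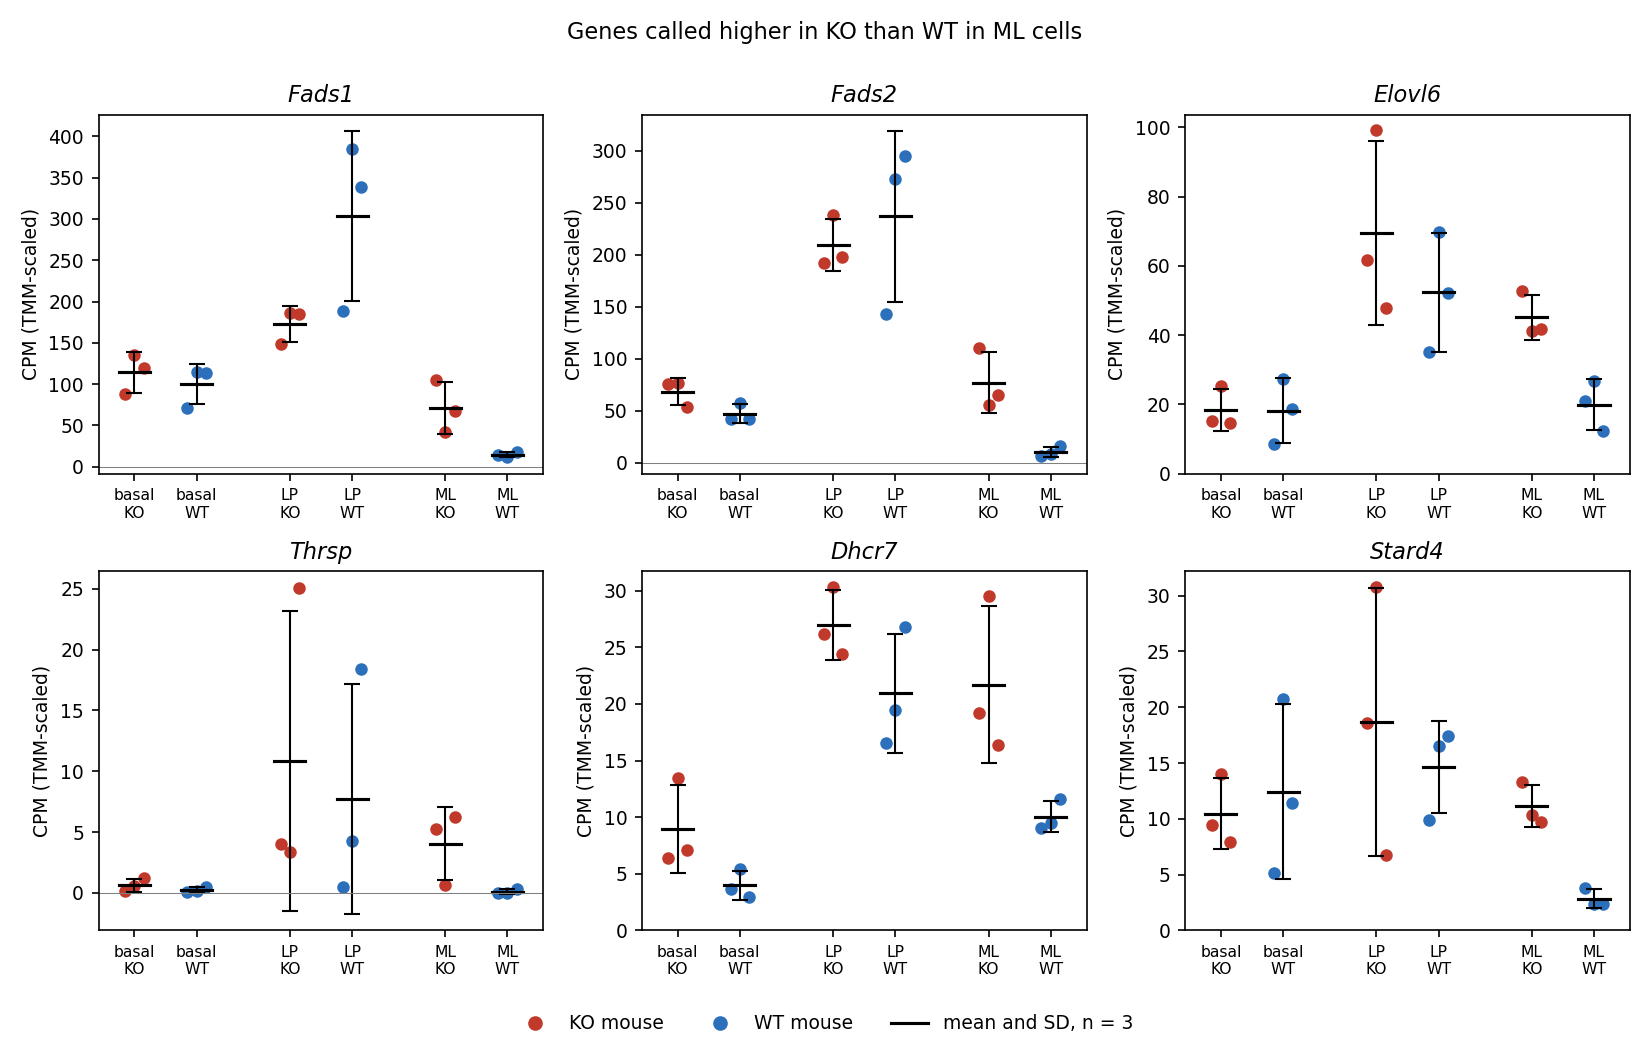
Level (CPM, TMM-scaled, linear axis) of the 6 genes called higher in KO ML, by population and genotype, with 1 point per mouse, KO in red and WT in blue, and black lines for the mean and SD of 3 mice. In ML all KO points lie above all WT points for each gene, and for Fads1 and Fads2 the ML KO points lie between those of ML WT and LP WT. The ML KO ranges of Fads1 and Fads2 also overlap those of basal WT. For Elovl6, Thrsp, Dhcr7 and Stard4 the ML KO ranges overlap those of LP WT.

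None of the 7 genes of the route to squalene was called in ML. Hmgcs1 had 87.8, 109.8 and 101 CPM in KO and 169, 134 and 61.6 CPM in WT ML, with KO inside the range of WT. Fdps, called in LP, had 40.3, 29.8 and 16.9 CPM in KO and 8.24, 12.7 and 12.7 CPM in WT ML (log2 fold change 1.34, SE 0.51, adjusted p 0.0893), without overlap. Fdps was called in ML by DESeq2 (adjusted p 0.0440) and with the 6 ML libraries alone (0.0226). Its genotype effect in LP minus that in ML was not called (0.69, SE 0.72, adjusted p 0.628). Mvd, also called in LP, had 9.92, 10.1 and 7.83 CPM in KO and 10.5, 11.1 and 11.7 CPM in WT ML (log2 fold change -0.26, adjusted p 0.592), with every KO library slightly below WT. Srebf1 had 112, 109.5 and 154 CPM in KO and 252, 249.6 and 249.0 CPM in WT ML, a log2 fold change of -1.0 (SE 0.34, adjusted p 0.0505). Its WT libraries were nearly equal and all above KO, and it was called lower in 7 of 16 alternatives, among them DESeq2 (adjusted p 0.0398) and the fit without KO mouse 3 (0.0498). Insig1, whose product retains SREBP, had 29.9, 28.5 and 21.9 CPM in KO and 14.6, 21.0 and 7.44 CPM in WT ML (log2 fold change 0.92, SE 0.41, adjusted p 0.138). Across the ML libraries 10 members lay wholly above and 2 (Srebf1 and Mvd) wholly below, against 21.6% and 16.2% of all genes.

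Leaving out any WT ML mouse cut the 6 calls to 3, and leaving out any KO ML mouse to 4. Fads1 and Fads2 were among the calls each time. Thrsp lost its call in all but the fit without KO mouse 2, with adjusted p of 0.106 and 0.149 without KO mouse 1 or 3 and 0.117, 0.159 and 0.161 without WT mouse 1, 2 or 3. Elovl6 had log2 fold changes of 1.07, 1.26 and 1.25 without KO mouse 1, 2 or 3 (adjusted p 0.140, 0.0651 and 0.0630) and of 1.23 and 0.92 without WT mouse 1 or 3 (adjusted p 0.0894 and 0.193). Dhcr7 had 0.81 without KO mouse 2 (adjusted p 0.141) and 1.04 and 1.06 without WT mouse 1 or 2 (adjusted p 0.0759 and 0.0899). Stard4 had 1.93 and 1.91 without WT mouse 2 or 3 (adjusted p 0.0665 and 0.0744). The fold changes of these 3 genes stayed close to those of all libraries in most of these fits.

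Markers of the other epithelial populations moved with genotype in ML. All 8 luminal progenitor markers were called higher, with summed levels of 311 to 905 CPM in KO and 88.5 to 100.2 CPM in WT ML. Of 8 basal markers 6 were called higher, with sums of 483 to 545 CPM in KO and 14.3 to 17.0 CPM in WT. Of 12 milk and alveolar markers 4 were called higher, with sums of 324 to 3079.8 CPM in KO and 86.0 to 317 CPM in WT. These lists are not separate. Among the 4 were Csn3 and Elf5, an alveolar transcription factor, both also counted as progenitor markers. Xdh was another, and it is also counted among the other lipid genes below. Of 8 mature luminal markers 3 were called lower, with sums of 1626 to 4749 CPM in KO and 7319 to 9710.1 CPM in WT. Fads1, Fads2, Kit and Elf5 stood in the same order in the KO ML libraries, highest in mouse 1 and lowest in mouse 2. Kit and Elf5 are only part of the 8 progenitor markers, and the order of the others is not given here. An order of 3 libraries is easily shared by unrelated genes, so nothing is concluded from it. Cell cycle markers were called higher for 7 of 8, with sums of 330 to 648 CPM in KO and 77.5 to 119 CPM in WT. The part of these markers in the ML differences was not tested. The adipocyte markers, 7 of 11 of which were tested, gave no call in any population. Their sums were lower in every KO ML library, at 110 to 155 CPM in KO and 160 to 203 CPM in WT. In basal cells (82.6 to 96.4 CPM in KO, 77.8 to 112 CPM in WT) and LP (115 to 216 and 167 to 241 CPM) the sums overlapped. The defining adipocyte gene Adipoq was at 0 to 0.0276 CPM in KO ML and at 0 in all 3 WT ML libraries.

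**Figure D4:**
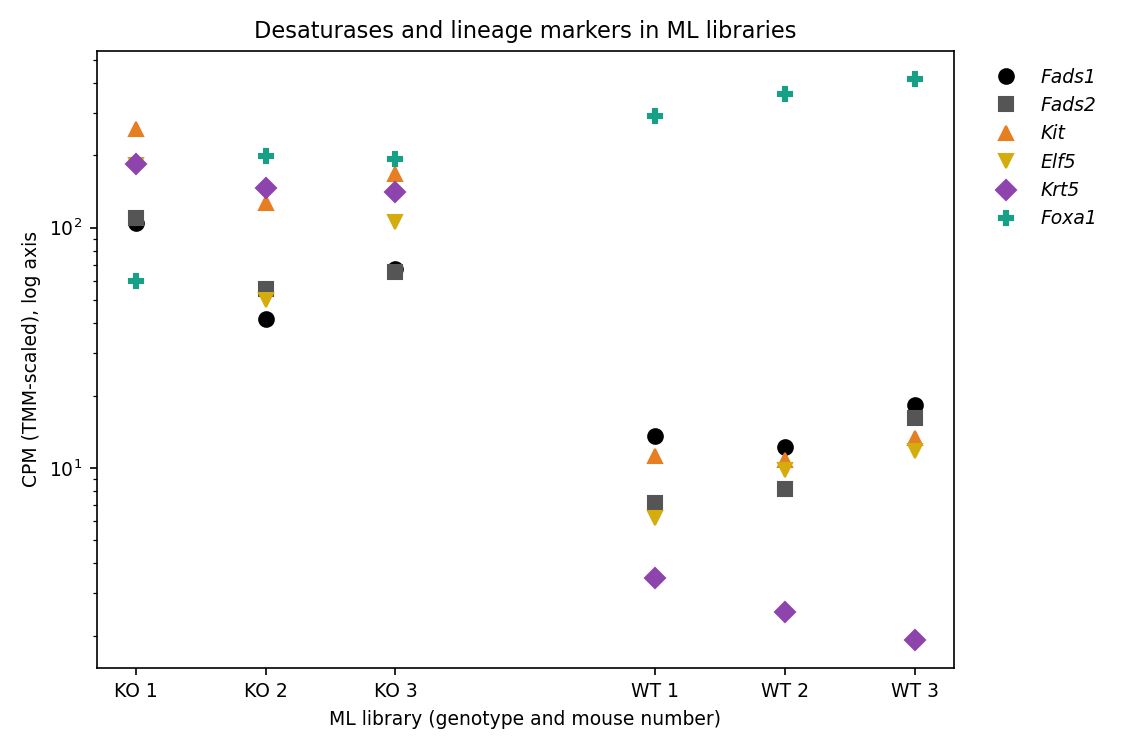
Level (CPM, TMM-scaled, log axis) of Fads1 and Fads2 beside the LP markers Kit and Elf5, the basal marker Krt5 and the ML marker Foxa1 in the 3 KO and 3 WT ML libraries, 1 point per library. Fads1, Fads2, Kit, Elf5 and Krt5 are higher in each KO library than in each WT library, and Foxa1 is lower, at 59.8 to 199 CPM in KO and 290.3 to 417 CPM in WT.

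The genotype effects of Fads1 and Fads2 differed between populations in a direct test of the difference. The effect in LP minus that in ML was -3.07 on the log2 scale for Fads1 (SE 0.46, adjusted p 2.30e-04) and -3.01 for Fads2 (SE 0.46, adjusted p 2.87e-04). The effect in ML minus that in basal cells was 2.07 for Fads1 (SE 0.45, adjusted p 0.00704) and 2.30 for Fads2 (SE 0.46, adjusted p 0.00324). These were the calls among the 34 genes in each of the 2 comparisons, in which 6.37% and 5.53% of all genes were called. Between LP and basal cells none of the 34 genes was called, where 1.09% of all genes were. The lowest p there belonged to Fdps, Elovl1 and Fads1 (adjusted p 0.218, 0.246 and 0.310). DESeq2 called none of the 34 there either. Since the 3 libraries of a mouse share that animal, the tests were repeated with the mouse as a block. Of LP against ML the block called 6 members, adding Mvd (1.34, adjusted p 0.0399), Scd2 (2.34, 0.00696), Stard4 (-1.92, 0.0473) and Thrsp (-4.68, 0.00908). Of ML against basal cells it called 3, adding Stard4 (2.29, adjusted p 0.0212). Positive values of Mvd and Scd2 mean that the effect in LP lay above that in ML. For Stard4, the call between ML and basal cells also appeared without WT basal mouse 1 (adjusted p 0.0215), and Mvd was called between LP and ML without WT LP mouse 3 (0.0138), as was Thrsp without KO LP mouse 3 (0.0380).

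Other genes of lipid synthesis, uptake, storage and breakdown were counted from a list of 91, of which 90 were tested. None was called in KO basal cells, where DESeq2 called 2. In KO LP 10 were called higher and 2 lower, where 8.28% and 6.63% of all genes were. Elovl4, an elongase of very long chains, had 1.67, 3.82 and 2.73 CPM in KO and 0, 0.778 and 0.123 CPM in WT LP (log2 fold change 3.32, adjusted p 0.00502). Mid1ip1, which promotes the polymerisation of acetyl-CoA carboxylase, had 48.3, 28.9 and 20.9 CPM in KO and 19.7, 8.45 and 6.99 CPM in WT LP (log2 fold change 1.51, adjusted p 0.00719). Tecr, the reductase of the elongation cycle, had 144, 110.2 and 189 CPM in KO and 56.0, 80.8 and 103 CPM in WT LP (log2 fold change 0.89, adjusted p 0.0162). These genes of chain synthesis were each separated between the genotypes. Cyp7b1, an oxysterol hydroxylase, was also called higher in LP (log2 fold change 2.24, adjusted p 0.0201). The call of Cyp7b1 in LP was lost in 7 of 16 alternatives (adjusted p up to 0.0807) and that of Tecr in 6 (up to 0.118). Mylip, which marks lipoprotein receptors for degradation, was called lower in LP, with 26.1, 26.9 and 22.7 CPM in KO and 38.5, 65.8 and 57.9 CPM in WT (log2 fold change -1.10, adjusted p 0.00710). Btn1a1, a protein of the milk fat globule, was lower, with 111, 271 and 220.5 CPM in KO and 667, 1539 and 509 CPM in WT LP (log2 fold change -2.17, adjusted p 0.0150).

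In KO ML 16 of the 90 were called higher and 2 lower, where 11.8% and 3.5% of all genes were. Elovl4 had 74, 832 and 375 counts in KO and 0, 8 and 17 counts in WT ML (log2 fold change 4.72, adjusted p 3.26e-06). Hacd2, a dehydratase of the elongation cycle, had 25.6, 15.8 and 16.6 CPM in KO and 1.58, 3.09 and 5.52 CPM in WT ML (log2 fold change 2.36, adjusted p 2.43e-05). Both were separated between the genotypes, as was Fads3. Xdh, which is needed for the release of milk fat globules, had 109.9, 40.6 and 95.0 CPM in KO and 7.76, 17.6 and 13.0 CPM in WT ML (log2 fold change 2.65, adjusted p 4.17e-05). Lbr, which also has sterol reductase activity, had 69.9, 58.8 and 44.9 CPM in KO and 16.2, 22.1 and 21.9 CPM in WT ML (log2 fold change 1.51, adjusted p 2.21e-04). Cyp7b1 had 27, 86 and 62 counts in KO and 3, 2 and 0 counts in WT ML (log2 fold change 4.25, adjusted p 2.12e-04). By list, 8 of 28 other fatty acid synthesis genes were called higher and 1 lower in ML. Of 11 other cholesterol synthesis genes 1 was called higher. Over all genes 11.8% were called higher and 3.5% lower.

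Among the WT mice the 34 genes differed between the sorted populations. In WT LP against WT basal cells 9 were called higher and 4 lower, where 17.3% and 19.8% of all genes were. In WT LP against WT ML 10 were higher and 3 lower, where 17.6% and 16.1% of all genes were. In WT ML against WT basal cells 7 were higher and 7 lower, where 25.7% and 28.9% of all genes were. With the mouse as a block, 5 were called lower in WT LP than in WT ML, adding Mvk and Elovl5.

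Fads1 in WT had 188, 385 and 338 CPM in LP, 13.6, 12.2 and 18.3 CPM in ML and 71.5, 114 and 114 CPM in basal cells. Fads2 in WT had 143, 272 and 295 CPM in LP, 7.13, 8.17 and 16.1 CPM in ML and 42.4, 57.7 and 42.3 CPM in basal cells. The order for both was LP, basal cells and then ML, with no overlap between neighbours. The log2 fold change of LP over ML was 4.36 for Fads1 (SE 0.36, adjusted p 4.12e-08) and 4.45 for Fads2 (SE 0.37, adjusted p 3.87e-08). In ML the KO mice, at 41.6 to 105 CPM of Fads1 and 55.7 to 110.2 CPM of Fads2, lay above the ML WT range and below the LP WT range. These KO ML ranges overlapped the WT basal ranges. The other genes called in KO ML were also called higher in WT LP than in WT ML. Their log2 fold changes were 1.41 (Elovl6), 5.62 (Thrsp), 1.05 (Dhcr7) and 2.44 (Stard4). Insig1, Me1, Acaca and Scd1 were called higher in WT LP than in WT ML but were not called in KO ML. Scd1 in WT had 779, 299 and 599 CPM in LP, 169.9, 227 and 372 CPM in ML and 25.4, 77.2 and 52.1 CPM in basal cells, and LP and ML overlapped. Scd2 in WT had 15.8, 50.7 and 28.6 CPM in LP, 229.7, 350.5 and 273 CPM in ML and 20.5, 157 and 48.4 CPM in basal cells, so it was highest in ML (LP over ML -3.17 on the log2 scale, SE 0.58, adjusted p 4.26e-04). The Scd genes are close paralogs within 204.4 kb of chromosome 19, and the counting of reads that match more than 1 gene was not given in the sources used here. Thus the split between Scd1 and Scd2 is uncertain.

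Elovl6, Me1 and Thrsp, all genes of lipogenesis, were called higher in WT LP than in both other populations. Thrsp was uneven within WT LP, with 0.493, 4.22 and 18.4 CPM. Insig1 and Stard4 were called lower in WT ML than in both other populations. Cyp51, the lanosterol demethylase, had 92.0, 124 and 105 CPM in LP, 74.0, 59.9 and 22.1 CPM in ML and 218, 385 and 210.0 CPM in basal cells, and was called higher in basal cells than in either. Fasn, the fatty acid synthase, had 272, 270.2 and 414 CPM in LP, 179, 242 and 225 CPM in ML and 684, 586 and 448 CPM in basal cells, again called higher in basal cells than in either. Dhcr7 was called in all 3 comparisons, in the order LP, ML and basal cells. The 4 lower calls of LP against basal cells (Sqle, Cyp51, Fasn and Elovl5) became 0 without WT basal mouse 2 and 0 without WT LP mouse 1, and the 3 lower calls of LP against ML (Fdft1, Ebp and Scd2) became 1 without WT ML mouse 2.

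**Figure D5:**
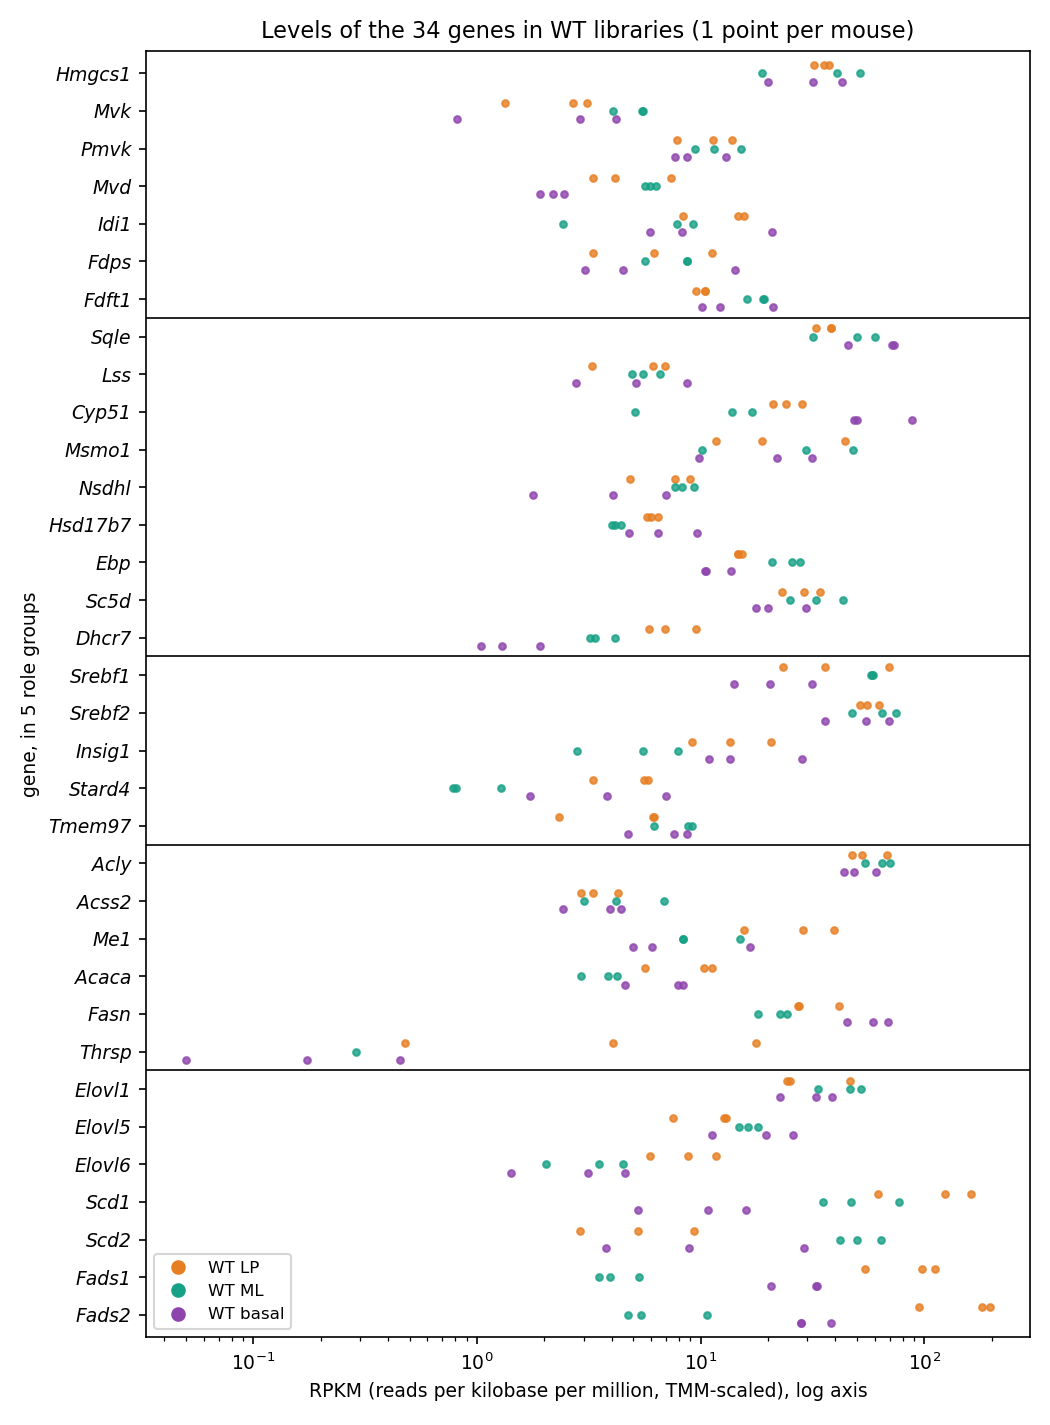
Level per gene length (RPKM, log axis) of the 34 genes (rows, in 5 role groups) in WT libraries of LP (orange), ML (green) and basal cells (purple), 1 point per mouse. Fads1 and Fads2 are highest in LP and lowest in ML, Scd2 is highest in ML, and the 2 ML libraries with 0 counts of Thrsp have no point on the log axis.

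Per gene length, Fads2 was at 94.7 to 196 RPKM (CPM divided by gene length in kilobases) in WT LP, where it had the highest median of the 34 genes, followed by Scd1 and Fads1. In WT ML the highest median was that of Acly, at 54.5 to 70.4 RPKM, and in WT basal cells that of Sqle, at 45.6 to 72.8 RPKM. In KO ML the highest median was that of Scd1, at 48.4 to 93.2 RPKM, and Fads2 was at 36.9 to 73.1 RPKM there. Thrsp had the lowest median in WT ML, WT basal cells and KO basal cells. These orders compare medians of 3 mice, and neighbouring genes mostly overlapped.

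Replicates of a group differed together across the 16 cholesterol enzymes. In KO basal cells mouse 2 was the highest library for 13 of the 16 and mouse 3 the lowest for 13, with summed levels of 958, 1083 and 622 CPM. In WT basal cells mouse 2 was the highest for 14, with sums of 716, 1119.8 and 650 CPM. In KO ML mouse 2 was the highest for 12 and mouse 3 the lowest for 13, with sums of 770.3, 806 and 594 CPM. In KO LP mouse 2 was the highest for 10 and mouse 3 the lowest for 9, and in WT LP mouse 1 was the lowest for 11. The mouse 2 libraries were also the deepest in KO basal cells, KO LP, KO ML and WT basal cells, at 39.19, 32.72, 30.55 and 33.49 M counts, and the part of depth was not tested. In WT ML the order ran otherwise, with sums of 825, 699 and 458 CPM at 5.97, 11.35 and 20.33 M counts. Among the 13 fatty acid genes mouse 2 was the highest for 9 in WT basal cells and 4 in KO basal cells. In KO ML mouse 2 was the lowest for 8 of these 13. Such ranks were not counted over all genes, so they are not shown to be particular to the cholesterol enzymes. The median coefficient of variation of the 16 enzymes was 29.2% in KO and 36.5% in WT basal cells, 31.7% in KO and 26.1% in WT LP, and 20.3% in KO and 19.6% in WT ML, against medians over all genes of 22.7%, 27.2%, 28.5%, 31.3%, 23.0% and 23.5%.

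Several members share their locus with another gene of the table. Elovl1 overlaps Cdc20, Fdft1 overlaps Ctsb, Acaca overlaps Tada2a, Srebf1 overlaps Rai1, and Lss, Acss2 and Me1 overlap noncoding or unnamed genes. The strand setting was not given in the sources used here, and reads of such partners could not be told apart. None of the 10 calls of KO against WT concerns one of these members.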

How the data were processed

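RNA was prepared with a miRNeasy micro kit and libraries with Illumina TruSeq RNA v2, per the labels' protocols. The authors deposited integer counts of reads for each gene, obtained from featureCounts on mm10, per the submitters' processing notes. Aligner, annotation and strandedness were not given in the sources used here. All 18 single-library files equal the series-wide table. Symbols were matched by Entrez identifier through RefSeq (25275 of 27179; 1.6% of counts lacked one). No replicate repeated another (chi-square per degree of freedom 22.6 to 204). edgeR 4.0.16 in R 4.3.3 (filterByExpr, TMM, robust quasi-likelihood fit of 1 mean per group over all 18 libraries) tested KO against WT per population, differences of these effects, and WT populations, with Benjamini-Hochberg adjustment. The fit was also run on simulated counts drawn independently for each library, unlike the libraries of a mouse here. No result rests on that run. RPKM used the lengths in the table. Alternatives included DESeq2 1.42.0 and limma 3.58.1 voom. Libraries of a mouse deviated together (correlations 0.095 to 0.33, 17 of 18 over 0.1), and their pairing comes from the mouse numbers in the descriptions. All members were described, called members with every value. The members and lists were chosen with earlier results of these data known.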

Additional observations from a re-analysis of the deposited data

Results flagged for a closer look

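Fads1 and Fads2 had genotype effects that differed between populations in a direct test of the difference (edgeR, adjusted over all genes). The KO over WT effect in LP minus that in ML was -3.07 for Fads1 and -3.01 for Fads2 on the log2 scale. The KO over WT effect in ML minus that in basal cells was 2.07 for Fads1 and 2.30 for Fads2. All 4 differences use the same ML libraries, in which every KO library lay above every WT library for both genes. In WT mice both genes were higher in LP than in ML (log2 fold changes 4.36 and 4.45). Both were also lower in WT ML than in WT basal cells (-2.75 and -2.14). Luminal progenitor markers summed to 311 to 905 CPM in KO ML and 88.5 to 100.2 CPM in WT ML. Basal markers summed to 483 to 545 CPM in KO ML and 14.3 to 17.0 CPM in WT ML. The part of these markers in the differences was not tested. Groups of 3 are too small to test for a library far from the others.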

How the results depend on the processing

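Of 306 results (34 genes in 9 comparisons), 221 were uncalled and 29 called in every setting. No result changed sign in a setting where it was called there or in the main fit. Sign changes of results uncalled in both were not counted. Members called higher in KO basal cells came to 1 with DESeq2 (main 0). Those higher in KO LP came to 2 with thinned libraries and 1 with the 6 LP libraries alone (main 4). One member, Srebf1, was called lower in KO ML with DESeq2, limma voom, limma voom with the mouse as random effect, the length trend removed, the 6 ML libraries alone and the replicate number as a block (1 each, main 0). Of the members higher in KO ML, Thrsp lost its call with no filter (adjusted p 0.0857), thinned libraries (0.0613), limma voom (0.150) and voom with the mouse as random effect (0.139), Stard4 with both voom fits (0.0712 and 0.0684), Dhcr7 with thinned libraries (0.0551), and Elovl6 with the length trend removed (0.0610) and the legacy fit (0.0523). LP against ML effects called 4 with DESeq2 and 6 with the mouse as a block (main 2). WT LP below WT basal cells came to 2 with limma voom and 2 with the length trend removed (main 4), and WT LP below WT ML to 5 with the mouse as a block (main 3). The edgeR legacy fit was added after seeing the data.

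Leaving out each library gave, higher then lower, 0 to 1 and 0 to 0 in basal cells, 0 to 4 and 0 to 2 in LP, and 3 to 4 and 0 to 1 in ML for KO against WT. Effect differences gave 0 to 0 for LP and basal cells, 2 to 3 for LP and ML, and 2 to 3 for ML and basal cells. WT comparisons gave 7 to 10 and 0 to 4 for LP against basal cells, 7 to 9 and 1 to 3 for LP against ML, and 6 to 10 and 7 to 7 for ML against basal cells.

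Mice of equal number in KO and WT are different animals, with correlations of -0.098 to 0.26. With a replicate block on that number, Mvd (1.11) and Elovl5 (0.85) lost and Scd2 (1.67) gained a call in LP, and in ML Dhcr7 (1.08) lost and Cyp51 (0.94), Insig1 (1.01) and Srebf1 (-1.01) gained one. The block on the mouse changed no call beyond those given above and in the WT comparisons, where it added 2 (LP, basal), 4 (LP, ML) and 4 (ML, basal). Over all genes, calls in KO basal cells were 243 higher and 14 lower with thinned libraries, against 488 and 31, and in KO LP 534 higher and 254 lower with the 6 LP libraries alone, against 1364 and 1092. RLE scaling moved the median of all genes to -0.11 for the LP minus ML effects and -0.14 for WT ML over basal cells. Counting error is largest for genes of few counts, such as Thrsp with 0, 0 and 7 counts in WT ML.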
